A study of Mus musculus with 18 samples.

Results

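Transcripts of 10 transporters of neutral and acidic amino acids were followed in cultured pancreatic acinar cells of xCT KO and WT mice. The 10 genes were taken by name from the count table of 46603 genes: Slc1a1, Slc1a4, Slc1a5, Slc6a9, Slc38a1, Slc38a2, Slc38a3, Slc38a5, Slc43a1 and Slc43a2. The rule used no measured value, but these genes and the gene lists below were chosen with earlier results of these data known. All 10 were found, and 8 of them were among the 13203 genes that passed the filter on low counts and were tested. Slc1a1 and Slc43a1 were at 0 to 11 and 1 to 10 counts per library and did not pass.

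The 6 groups were KO and WT cells at day 0 (D0, freshly isolated), day 1 (D1) and day 4 (D4), with 3 RNA-seq libraries each and 18 in all. KO mice lacked xCT, the subunit of system xC- encoded by Slc7a11, throughout the body, and WT mice were the xCT+/+ animals of the same descent. After D0 the cells of both genotypes were kept in suspension in Advanced RPMI medium, a culture in which acinar cells dedifferentiate. Neither the ages of the mice nor the sex behind each library is given in the sources used here.

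System xC- brings cystine into the cell and lets glutamate out, and cystine is a source of cysteine for glutathione. The genes described here move the neighbouring amino acids. SLC1 transporters carry glutamate or exchange alanine, serine, cysteine and glutamine, SLC38 transporters take up glutamine and alanine with sodium, Slc6a9 takes up glycine, and SLC43 transporters pass leucine and other large neutral amino acids without sodium. Acinar cells make large amounts of digestive enzymes and draw on this uptake for protein synthesis. Several of these genes are known targets of ATF4, a transcription factor that is translated when amino acids are scarce.

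The genes lie on 8 chromosomes (GRCm38, positions of the count table). Slc1a4 spans 20302180 to 20332713 on the minus strand and Slc43a2 75531694 to 75577575 on the plus strand of chromosome 11. Slc38a1 and Slc38a2 are neighbours on the minus strand of chromosome 15, at 96571418 to 96642913 and 96687394 to 96699698. Slc1a5 is on chromosome 7 (16781346 to 16798274), Slc6a9 on chromosome 4 (117834506 to 117875198), Slc38a3 on chromosome 9 (107650634 to 107669530) and Slc38a5 on chromosome X (8271133 to 8280179). Slc43a1 is on chromosome 2 (84838850 to 84863594) and Slc1a1 on chromosome 19 (28835049 to 28913960).

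The deleted gene checked the labels. Slc7a11 averaged 0.657 ± 0.541 CPM in KO and 10.2 ± 0.857 CPM in WT at D0, 1.16 ± 0.265 in KO and 70.4 ± 6.59 in WT at D1, and 0.468 ± 0.0916 in KO and 38.5 ± 1.56 in WT at D4 (SD, n = 3 each). CPM are counts brought to a common library size, here scaled by TMM (trimmed mean of M values), which sets the bulk of genes level between libraries. Libraries held 12127474 to 20135435 counts. The 10 most abundant genes took 15.5% to 22.6% of a library at D4 and 64.5% to 66.4% at D0, and the TMM factors were 0.316 to 0.439 at D0, 0.739 to 0.968 at D1 and 2.76 to 3.38 at D4. A rise or fall over days is therefore relative to the median gene. With library totals in place of TMM, the median gene itself shifted by 1.29 in KO and 0.998 in WT (log2) at D1 against D0, and by 1.86 in KO and 2.02 in WT at D4 against D1. Acinar markers took 51.5% to 53.2% of counts in KO and 51.3% to 52.7% in WT at D0, 44.6% to 45.8% in KO and 46.8% to 47.5% in WT at D1, and 6.25% to 7.18% in KO and 7.72% to 10.1% in WT at D4. Replicate 1 of WT was the only number with Y-linked transcripts (Ddx3y counts of 6, 18 and 92 at D0, D1 and D4), while no KO library had a Ddx3y count, so genotype and sex are in part confounded. Transporter calls of KO against WT are given with and without replicate 1 of WT where that changes them.

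At D0, before any culture, 3 of the 8 tested transporters were higher in KO than in WT and 0 were lower. They were Slc38a2 (SNAT2), a sodium-coupled uptake system for alanine and glutamine that is known to be induced by amino acid shortage, Slc38a1 (SNAT1), its close relative, and Slc1a4 (ASCT1), an exchanger of alanine, serine and cysteine. Over all genes, 1.17% were called in this comparison (0.644% higher and 0.53% lower), at an adjusted p under 0.05 from edgeR's quasi-likelihood test. The median log2 fold change of the 8 transporters was 0.17, against 0.00 for all genes tested. In bulk RNA, fewer cells of a type and less RNA per cell cannot be told apart.

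Slc38a2 had 166, 177 and 218 CPM in the KO libraries, against 128, 113 and 130.4 CPM in the WT libraries. The groups did not overlap. The log2 fold change was 0.59 (SE 0.10, adjusted p = 0.00244), or 1.51-fold higher in KO. This call held with each of the 6 libraries left out in turn (adjusted p of 0.00149 to 0.0313).

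Slc1a4 had 32.2, 33 and 40.5 CPM in KO and 23.6, 22.0 and 24.7 CPM in WT. Every KO library was above every WT library. Its log2 fold change was 0.58 (SE 0.15, adjusted p = 0.0407). The call was lost when KO replicate 2, KO replicate 3, WT replicate 1 or WT replicate 2 was left out (adjusted p of 0.0476 to 0.17 over the 6 libraries), and with replicate 1 of WT removed from all days it was 0.59 with an adjusted p of 0.0654. With library totals it was 0.64 with an adjusted p of 0.0574, and in limma on log2(FPKM + 0.1) it was 0.51 with an adjusted p of 0.0665. Slc38a2 and Slc38a1 were called under both scalings.

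Slc38a1 was scarce at D0, at 15.0, 9.62 and 12.8 CPM in KO and 5.58, 4.82 and 8.12 CPM in WT. The groups did not overlap, and the log2 fold change of 1.02 (SE 0.23, adjusted p = 0.026) was the largest of the members in size. It rests on 46 to 87 counts per library in KO and 23 to 42 in WT. The call was lost without KO replicate 1, KO replicate 3, WT replicate 1 or WT replicate 2 (adjusted p of 0.0154 to 0.155), and without replicate 1 of WT at all days it was 0.95 with an adjusted p of 0.15. Fitted on the D0 libraries alone, or without replicate 1 of WT, only Slc38a2 of the 8 was called. Of all genes, 66 were called on the D0 libraries alone and 177 without replicate 1 of WT.

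The remaining members were not called at D0. Slc6a9 (GLYT1), the glycine transporter, had 191, 188 and 180.0 CPM in KO and 137, 145 and 162 CPM in WT, with no overlap and a log2 fold change of 0.33 (95% interval 0.11 to 0.56, adjusted p = 0.155). Groups that do not overlap were seen for 4 of the 8 transporters and for 12.8% of all genes tested. Slc38a3 (SNAT3), a system N carrier of glutamine and histidine, had nearly the same mean in both genotypes, with a log2 fold change of 0.00 (95% interval -0.21 to 0.21). Slc38a5 (SNAT5), the other system N carrier, was at -0.05 (95% interval -0.37 to 0.27), and Slc1a5 (ASCT2), an exchanger of glutamine and other neutral amino acids, was at -0.08 (95% interval -0.37 to 0.20). Slc43a2 (LAT4) had 1.73, 3.97 and 2.39 CPM in KO and 2.68, 7.12 and 5.02 CPM in WT, and its log2 fold change of -0.91 (95% interval -1.65 to -0.18) had an adjusted p of 0.251. It rests on 10 to 19 counts per library in KO and 12 to 34 in WT.

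Lymphocyte markers stood apart between the D0 groups. The B cell markers Cd79a and Cd79b were at 0 in KO. The 5 T cell markers summed to 0 to 0.418 CPM in KO and 2.51 to 5.80 CPM in WT, with Cd3d, Cd3e, Cd3g and Trac at 0 in KO. The 7 islet markers summed to 356 to 499.8 CPM in KO and 581 to 1957 CPM in WT, with 0 of 7 called. Of 5 smooth muscle markers 2 were lower in KO, beside 0.53% of all genes. The part of these cells in the transporter values was not tested.

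**Figure D1:**
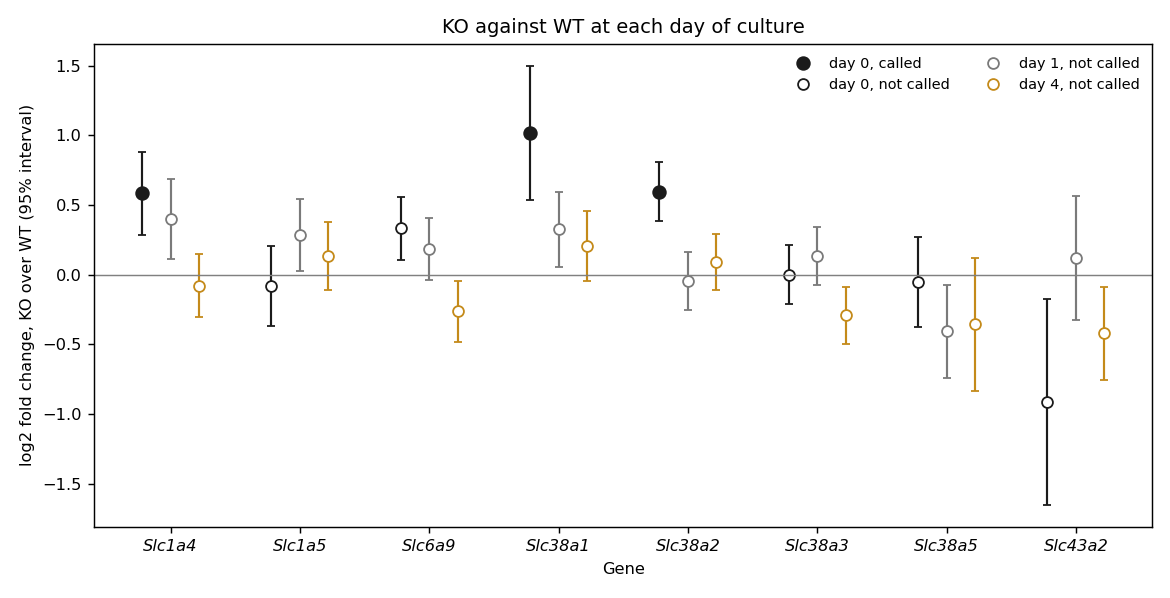
KO against WT at each day for the 8 tested transporters: the y axis is the log2 fold change of KO over WT with its 95% interval, and filled points passed an adjusted p of 0.05. Filled points are Slc1a4, Slc38a1 and Slc38a2 at D0, and at D1 and D4 all 8 points are open.

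Other genes that respond to amino acid supply differed in the same comparison. Of 15 genes of the ATF4 and amino acid response, 6 were higher in KO at D0 and 0 were lower, with a median log2 fold change of 0.45. Over all genes, 0.644% were higher and 0.53% lower. The list was chosen with earlier results of these data known. Sesn2, a sensor of leucine and an inhibitor of mTORC1, averaged 33.6 ± 3.56 CPM in KO and 12.8 ± 0.606 CPM in WT (SD, n = 3 each in edgeR's fit, log2 fold change 1.40, adjusted p = 1.72e-07). Ddit4, another inhibitor of mTORC1, averaged 33.1 ± 2.19 CPM in KO and 13 ± 5.58 CPM in WT (log2 fold change 1.33, adjusted p = 0.000117). Chac1, which degrades glutathione, averaged 200.3 ± 27.4 CPM in KO and 37.6 ± 26.8 CPM in WT (log2 fold change 2.43, adjusted p = 0.00535). Without replicate 1 of WT, 9 of the 15 were higher and 0 lower, and of all genes 89 were higher and 88 lower.

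Among 16 tested enzymes of glutamine, glutamate, alanine, asparagine, serine, glycine and proline metabolism, 4 were higher in KO at D0 and 0 were lower (median log2 fold change 0.24). Of all genes, 0.644% were higher and 0.53% lower. Without replicate 1 of WT, 5 of the 16 were higher and 0 lower, and of all genes 89 were higher and 88 lower. Gls2, a glutaminase, was higher by 0.63 on the log2 scale (adjusted p = 0.00614), Gpt2, an alanine transaminase, by 0.58 (adjusted p = 0.0215) and Aldh18a1, an enzyme of proline synthesis, by 0.40 (adjusted p = 0.0227). Among 12 other plasma membrane amino acid transporters, 1 was higher and 1 lower, beside the same shares of all genes (2 higher and 1 lower without replicate 1 of WT). Slc7a3, a carrier of cationic amino acids, averaged 36.4 ± 6.17 CPM in KO and 12.3 ± 2.70 CPM in WT (log2 fold change 1.58, adjusted p = 1.64e-07), and the lower one was Slc7a11 itself. None of 11 tested relatives in the SLC1, SLC6, SLC38 and SLC43 families was called by edgeR (0 of 11 also at an unadjusted p under 0.05).

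Promoters were looked up for the genes that differed, since ATF4 is known to bind the amino acid response element with C/EBP partners. RefSeq windows of 300 bases, from 250 before to 50 after a transcription start (GRCm38.p6), were given for 7 of the 10 transporters in 10 windows, and for Slc7a11. Slc1a5, Slc38a1 and Slc38a3 were not among them. The motif TGATGNAA was searched on both strands and was found in 3.97% of all 32851 windows. It was found in the window of 1 transporter, Slc1a4, and was also found in that of Slc7a11. The window of Slc1a4 is chr11:20332664-20332963 on the minus strand, that of Slc7a11 is chr3:50443564-50443863 on the minus strand and that of Slc38a2 is chr15:96699679-96699978 on the minus strand. They are printed in the direction of transcription, with motif matches in capitals.
Slc1a4: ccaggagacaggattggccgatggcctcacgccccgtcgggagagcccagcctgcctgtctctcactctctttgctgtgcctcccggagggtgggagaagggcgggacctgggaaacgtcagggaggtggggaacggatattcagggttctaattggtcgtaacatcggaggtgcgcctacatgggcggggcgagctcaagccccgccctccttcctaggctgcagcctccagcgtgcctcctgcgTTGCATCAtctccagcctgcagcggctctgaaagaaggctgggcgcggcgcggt
Slc7a11: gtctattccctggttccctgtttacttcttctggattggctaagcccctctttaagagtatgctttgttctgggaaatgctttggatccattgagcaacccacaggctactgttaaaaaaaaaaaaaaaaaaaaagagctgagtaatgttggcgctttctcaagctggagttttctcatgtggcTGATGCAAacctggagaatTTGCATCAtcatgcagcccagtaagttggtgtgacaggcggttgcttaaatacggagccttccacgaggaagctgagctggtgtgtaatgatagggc
Slc38a2: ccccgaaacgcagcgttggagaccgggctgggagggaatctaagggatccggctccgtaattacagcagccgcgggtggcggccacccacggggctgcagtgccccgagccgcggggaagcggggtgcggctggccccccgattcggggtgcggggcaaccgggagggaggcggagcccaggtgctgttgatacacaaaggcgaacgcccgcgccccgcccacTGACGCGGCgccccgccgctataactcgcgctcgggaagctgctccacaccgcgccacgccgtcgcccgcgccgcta
In Slc1a4 the match TTGCATCA, which is TGATGCAA on the other strand, runs from base -4 to base 4 around the start. Slc7a11 holds TGATGCAA at bases -66 to -59 and TTGCATCA at bases -47 to -40. The capitals of Slc38a2 are not this motif but TGACNNNGC, the core of the antioxidant response element, at bases -27 to -19. TGACNNNGC was found in 12.4% of all windows on either strand, and also in the window of Slc43a1 and in 2 of the 3 windows of Slc6a9. The E-box CACGTG, in 7.15% of all windows, was found in those of Slc38a5 and Slc43a1. A match, or the lack of one, describes the letters of the window only, and sequence outside the windows was not searched.

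At D1, 4 of the 8 transporters had an unadjusted p under 0.05 between KO and WT in edgeR. The share of all genes at that threshold was not counted. After adjustment 0 of the 8 were called, while 1.45% of all genes were called (0.273% higher and 1.18% lower). DESeq2 and limma also called 0. Slc1a4 had 15.0, 17.8 and 16.2 CPM in KO and 14.7, 8.69 and 13.5 CPM in WT (log2 fold change 0.40, adjusted p = 0.157). Slc1a5 had 45.7, 45.4 and 44.2 CPM in KO and 43.8, 30.8 and 36.2 CPM in WT (log2 fold change 0.28, adjusted p = 0.309). Slc38a5 had 49.7, 42.1 and 39.8 CPM in KO and 60.6, 60.6 and 53.5 CPM in WT (log2 fold change -0.41, adjusted p = 0.252). These 3 genes had groups that did not overlap, as did 17.1% of all genes. Slc38a2, which had the smallest p of the 8 at D0, was at -0.04 at D1 (95% interval -0.25 to 0.17).

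The D1 comparison depended on the scaling. With library totals the median gene was higher in KO by 0.32 (log2), and 5 of the 8 transporters were called higher: Slc1a4, Slc1a5, Slc6a9, Slc38a1 and Slc38a3, at 0.45 to 0.72. Of all 13203 genes tested, 2347 were then called higher and 51 lower. Without KO replicate 1, edgeR with TMM called Slc38a1 at D1 (0.51, adjusted p = 0.0088). That library had 48 CPM of Slc38a1, against 73.7 and 75.4 CPM in the other KO libraries and 55.0, 48.8 and 53.4 CPM in WT.

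At D4, 3 of the 8 had an unadjusted p under 0.05 between KO and WT in edgeR, a threshold at which all genes were not counted. After adjustment 0 of the 8 were called, and 10.2% of all genes were called (3.83% higher and 6.39% lower). DESeq2 called 1, Slc38a3, and limma called 0. Slc38a3 had 47.9, 47.6 and 56.9 CPM in KO and 53.9, 61.3 and 71.2 CPM in WT, with overlap (log2 fold change -0.29, SE 0.10, adjusted p = 0.0604 in edgeR and 0.0287 in DESeq2). It was called lower without KO replicate 3 or without WT replicate 1 (adjusted p of 0.0308 to 0.372 over the 6 libraries). Slc43a2 had 13.1, 9.85 and 10.3 CPM in KO and 14.4, 14.6 and 15.5 CPM in WT (log2 fold change -0.42, adjusted p = 0.101). Slc6a9 was at -0.26 (adjusted p = 0.118) and Slc38a2 at 0.09 (95% interval -0.11 to 0.29). Fitted on the D4 libraries alone, 3 of the 8 were called, Slc38a1 higher and Slc6a9 and Slc43a2 lower in KO. That fit called 3780 of all genes (1850 higher and 1930 lower), against 1350 in the main model. Without replicate 1 of WT, 2 of the 8 were called, Slc38a3 and Slc38a5, both lower in KO. Of all genes, 983 were called there (324 higher and 659 lower). Groups did not overlap for 4 of the 8 transporters and for 43.7% of all genes. Of 10 acinar markers, 1 was higher and 4 were lower in KO at D4. All 7 fibroblast and stellate cell markers were lower in KO at D4, with sums of 25.0 to 57.2 CPM in KO and 234 to 322 CPM in WT, and their part in these values was not tested.

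Whether the change over days differed between KO and WT was tested directly. From D0 to D1, 0 of the 8 transporters were called in edgeR, beside 0.0985% of all genes (0.0151% higher and 0.0833% lower). At an unadjusted p under 0.05 there were 3 of the 8, and the share of all genes was not counted. Slc38a2 had the smallest p of them: the change in KO minus that in WT was -0.64 (SE 0.15, adjusted p = 0.0635). DESeq2 called it (adjusted p = 0.00378), limma called 0, and edgeR called it without KO replicate 1 of D0 or without WT replicate 1 of D0 (adjusted p of 0.0341 to 0.201 over 12 libraries). From D1 to D4, 3 of the 8 had an unadjusted p under 0.05 in edgeR, where the share of all genes was again not counted. Of the 8, 0 were called from D1 to D4 in edgeR, DESeq2 and limma. In edgeR 2.6% of all genes were called (0.924% higher and 1.67% lower). Without KO replicate 1 of D1, edgeR called Slc6a9 there (adjusted p of 0.0257 to 0.353 over 12 libraries). Of the ATF4 genes, Sesn2 and Ddit4 passed this test from D0 to D1, with a change in KO minus that in WT of -1.34 (adjusted p = 6.66e-05) and -1.56 (adjusted p = 0.00086).

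**Figure D2:**
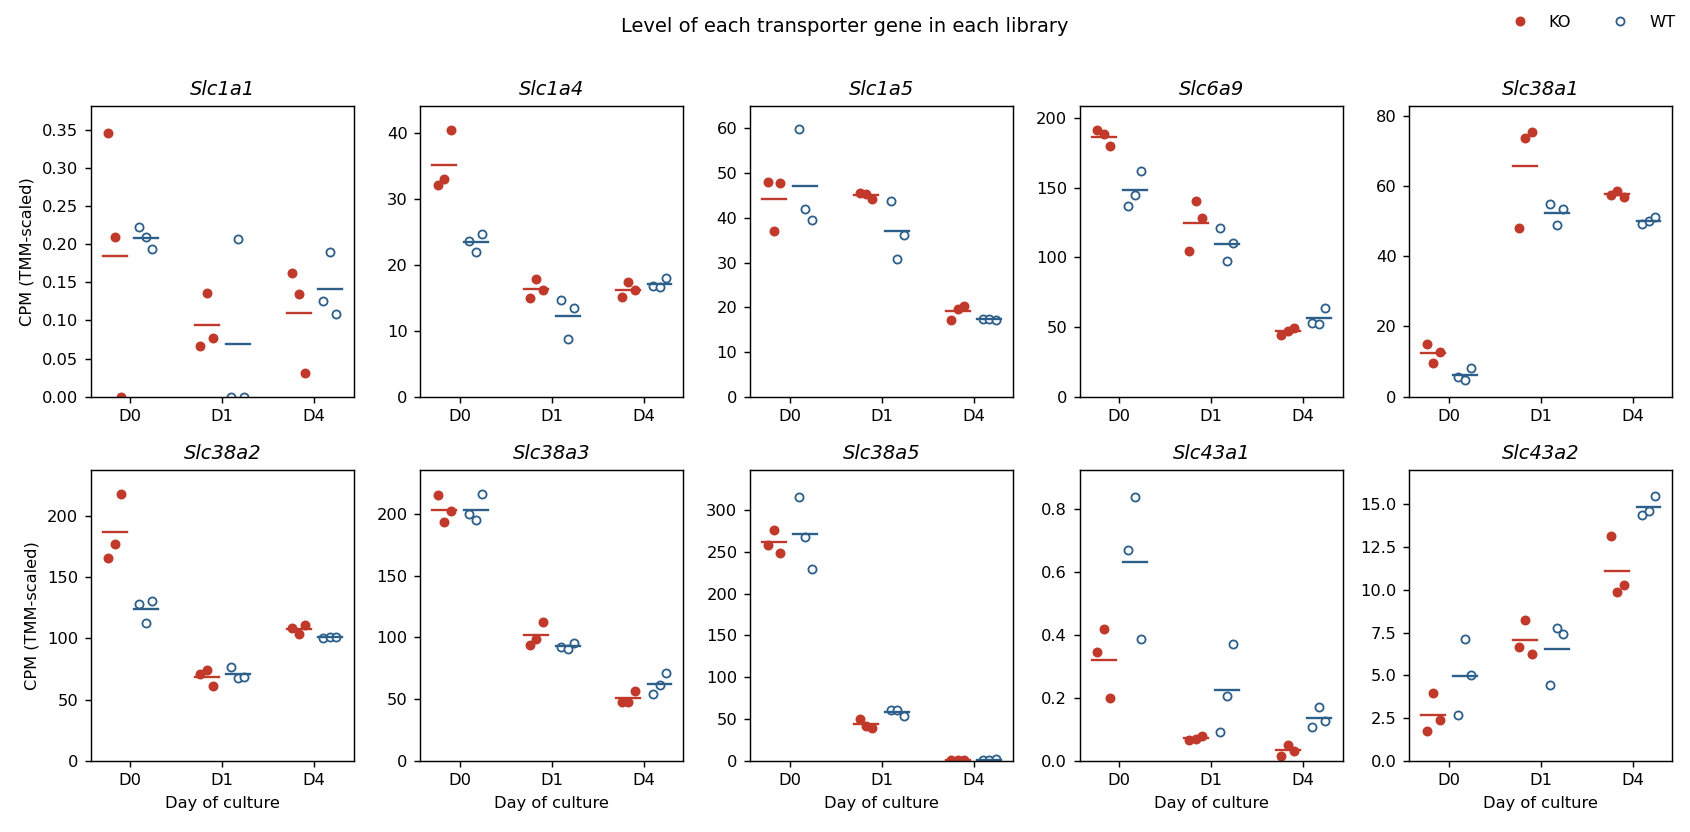
Level of each of the 10 transporters in each library: the y axis is CPM scaled by TMM (each panel from 0), the x axis is the day of culture, filled points are KO and open points WT, and bars are means of 3 libraries. Slc38a1 and Slc43a2 are higher at D4 than at D0 on this scale, Slc38a5 is at 0.844 to 1.93 CPM at D4 in all 6 libraries, and Slc1a1 and Slc43a1 are below 1 CPM in all 18.

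Most of these transporters differed between days in both genotypes, as did most genes. At D1 against D0, 2 of the 8 were higher and 5 lower in KO, where 30.5% of all genes were higher and 27.6% lower (58.1% in all). In WT 1 was higher and 6 were lower, where 28.6% of all genes were higher and 26.9% lower (55.4% in all). At D4 against D1, 2 were higher and 4 lower in KO, where 26.2% of all genes were higher and 27.1% lower (53.4% in all). In WT 3 were higher and 4 were lower, where 26.3% of all genes were higher and 26% lower (52.3% in all). At D4 against D0 all 8 were called in each genotype, 2 higher and 6 lower, where in KO 35.3% of all genes were higher and 29% lower (64.3% in all) and in WT 33.5% were higher and 26.9% lower (60.4% in all). The directions rest on TMM. With library totals 4 of the 8 were higher and 1 lower at D1 against D0 in each genotype. Of all 13203 genes, 9173 were then higher and 705 lower in KO, and 8168 higher and 943 lower in WT. At D4 against D0, 7 of the 8 were higher and only Slc38a5 was lower, in both genotypes. Nearly all genes were higher there too, 12256 (348 lower) in KO and 12345 (305 lower) in WT.

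Slc38a5 fell at each step under both scalings. In KO it had 259, 277 and 248 CPM at D0, 49.7, 42.1 and 39.8 at D1, and 1.36, 0.960 and 0.933 at D4. In WT it had 315, 268 and 229 CPM at D0, 60.6, 60.6 and 53.5 at D1, and 0.844, 1.40 and 1.93 at D4. No library of one day reached the range of another. Of all genes, the ranges of 2 days did not overlap for 60.1% in KO and 56.7% in WT (D1 and D0), 64.2% in KO and 63.3% in WT (D4 and D1), and 71.4% in KO and 65.6% in WT (D4 and D0). The D4 libraries still held 57 to 84 counts in KO and 47 to 107 in WT. The log2 fold change at D4 against D0 was -7.90 (SE 0.22, adjusted p = 9.84e-18) in KO and -7.60 (SE 0.21, adjusted p = 1.59e-17) in WT, and with library totals it was -4.83 in KO and -4.62 in WT.

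Slc38a1 moved the other way, and its rise came within the first day. In KO it had 15.0, 9.62 and 12.8 CPM at D0, 48, 73.7 and 75.4 at D1, and 57.5, 58.7 and 56.9 at D4. In WT it had 5.58, 4.82 and 8.12 CPM at D0, 55.0, 48.8 and 53.4 at D1, and 49.1, 50.04 and 51.2 at D4. At D1 against D0 it was 5.21-fold higher in KO (log2 fold change 2.38, SE 0.16, adjusted p = 2.07e-12) and 8.42-fold higher in WT (log2 fold change 3.07, SE 0.19, adjusted p = 3.54e-13). The difference between these 2 changes was -0.69 (SE 0.27, adjusted p = 0.339). At D4 against D1 it was not called, at -0.18 in KO and -0.06 in WT (without KO replicate 1 of D1 it was called lower in KO, at -0.37 with an adjusted p of 0.00341). With library totals it was higher there by 1.65 in KO and 1.92 in WT.

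Slc43a2, a sodium-independent carrier of leucine and related amino acids, was low throughout. In KO it had 1.73, 3.97 and 2.39 CPM at D0, 6.68, 8.25 and 6.27 at D1, and 13.1, 9.85 and 10.3 at D4. In WT it had 2.68, 7.12 and 5.02 CPM at D0, 4.45, 7.76 and 7.43 at D1, and 14.4, 14.6 and 15.5 at D4. It was higher at D4 than at D0 in KO by 2.07 (SE 0.27, adjusted p = 1.88e-07) and in WT by 1.57 (SE 0.24, adjusted p = 1.91e-06), and also with library totals. At D1 against D0 it was called in KO (1.42, adjusted p = 0.00019), and in WT it was 0.39 (adjusted p = 0.24) with TMM and called with library totals (1.37, adjusted p = 0.000176). The difference between these changes was 1.03 (SE 0.42, adjusted p = 0.365).

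Slc38a3 and Slc6a9 fell at each step relative to the median gene. Slc38a3 had 215, 193 and 202 CPM in KO and 199.9, 195 and 216 in WT at D0. It had 94.1, 98.6 and 113 in KO and 92.4, 90.6 and 95.2 in WT at D1, and 47.9, 47.6 and 56.9 in KO and 53.9, 61.3 and 71.2 in WT at D4. Within a genotype no 2 days overlapped. The log2 fold change at D4 against D0 was -2.003 in KO (SE 0.11, adjusted p = 1.29e-16) and -1.71 in WT (SE 0.10, adjusted p = 5.7e-15). With library totals both turned round, to 1.07 in KO and 1.25 in WT. In the deposited FPKM, the fall of Slc38a3 from D1 to D4 in WT was not called (-0.19 with a pseudocount of 1 in limma, adjusted p = 0.206).

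Slc6a9 had 191, 188 and 180.0 CPM in KO and 137, 145 and 162 in WT at D0. It had 105, 141 and 128 in KO and 121, 97.4 and 110.0 in WT at D1, and 43.9, 47.3 and 49.4 in KO and 52.8, 51.9 and 63.8 in WT at D4. Here too no 2 days of a genotype overlapped. At D4 against D0 it was at -1.99 in KO (SE 0.11, adjusted p = 5.84e-16) and -1.40 in WT (SE 0.11, adjusted p = 2.5e-12), and with library totals at 1.08 in KO and 1.55 in WT. The gene shares stretches with B4galt2 and Ccdc24 on the opposite strand, and the strand setting of the counting is not given in the sources used here. Reads of the overlap cannot then be told apart. B4galt2 held 1752 counts over the 18 libraries.

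Slc1a5 fell between D1 and D4 relative to the median gene. In KO it had 48.1, 37 and 47.8 CPM at D0, 45.7, 45.4 and 44.2 at D1, and 17.2, 19.6 and 20.4 at D4. In WT it had 59.8, 42.1 and 39.6 CPM at D0, 43.8, 30.8 and 36.2 at D1, and 17.5, 17.4 and 17.2 at D4. At D4 against D1 it was lower, at -1.24 in KO (SE 0.12, adjusted p = 1.07e-09) and -1.09 in WT (SE 0.13, adjusted p = 2.11e-08), and with library totals higher, at 0.59 in KO and 0.89 in WT. At D1 against D0 it was 0.02 in KO with TMM (95% interval -0.25 to 0.29), and with library totals it was called higher, at 1.26 in KO (adjusted p = 6.58e-09) and 0.67 in WT (adjusted p = 0.000186). In WT it was called at -0.34 with TMM (adjusted p = 0.0316), with overlap, and the call was lost without WT replicate 1 of D0 or WT replicates 2 or 3 of D1 (adjusted p of 0.00658 to 0.438), and without replicate 1 of WT at all days (-0.27, adjusted p = 0.0995).

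Slc38a2 and Slc1a4 were lower at D1 than at D0 with TMM, a difference not called with library totals. Slc38a2 had 166, 177 and 218 CPM at D0, 70.8, 74.4 and 61.1 at D1, and 108, 103 and 111 at D4 in KO. In WT it had 128, 113 and 130.4 at D0, 76.8, 67.4 and 68.4 at D1, and 100.4, 101 and 101 at D4. At D1 against D0 it was at -1.44 in KO (SE 0.10, adjusted p = 5.06e-13) and -0.80 in WT (SE 0.10, adjusted p = 1.18e-07), and it rose at D4 against D1 by 0.64 in KO (adjusted p = 3.14e-06) and by 0.51 in WT (adjusted p = 1e-04). With library totals the values at D1 against D0 were -0.18 in KO and 0.19 in WT, not called, and those at D4 against D1 were 2.47 in KO and 2.49 in WT. The WT difference between D4 and D0 (-0.30, adjusted p = 0.0128) was lost without WT replicate 3 of D0 (adjusted p of 0.0103 to 0.0611), without replicate 1 of WT at all days (-0.26, adjusted p = 0.0805), in FPKM (-0.12, adjusted p = 0.383) and with no filter on low counts (-0.17, adjusted p = 0.228).

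Slc1a4 was lower at D1, at -1.11 in KO (SE 0.14, adjusted p = 3.15e-08) and -0.92 in WT (SE 0.15, adjusted p = 5.69e-06). At D4 it had 15.1, 17.4 and 16.3 CPM in KO and 16.9, 16.6 and 18.1 CPM in WT. Against D1, D4 was higher in WT (0.47, adjusted p = 0.00319), a call lost without WT replicate 2 of D1 (adjusted p of 0.000924 to 0.0617), while KO was at -0.01 (95% interval -0.25 to 0.24). The difference between these 2 changes was not called (-0.48, adjusted p = 0.178). With library totals the D1 values were 0.14 in KO and 0.07 in WT, not called, and the D4 values against D1 were 1.83 in KO and 2.45 in WT.

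**Figure D3:**
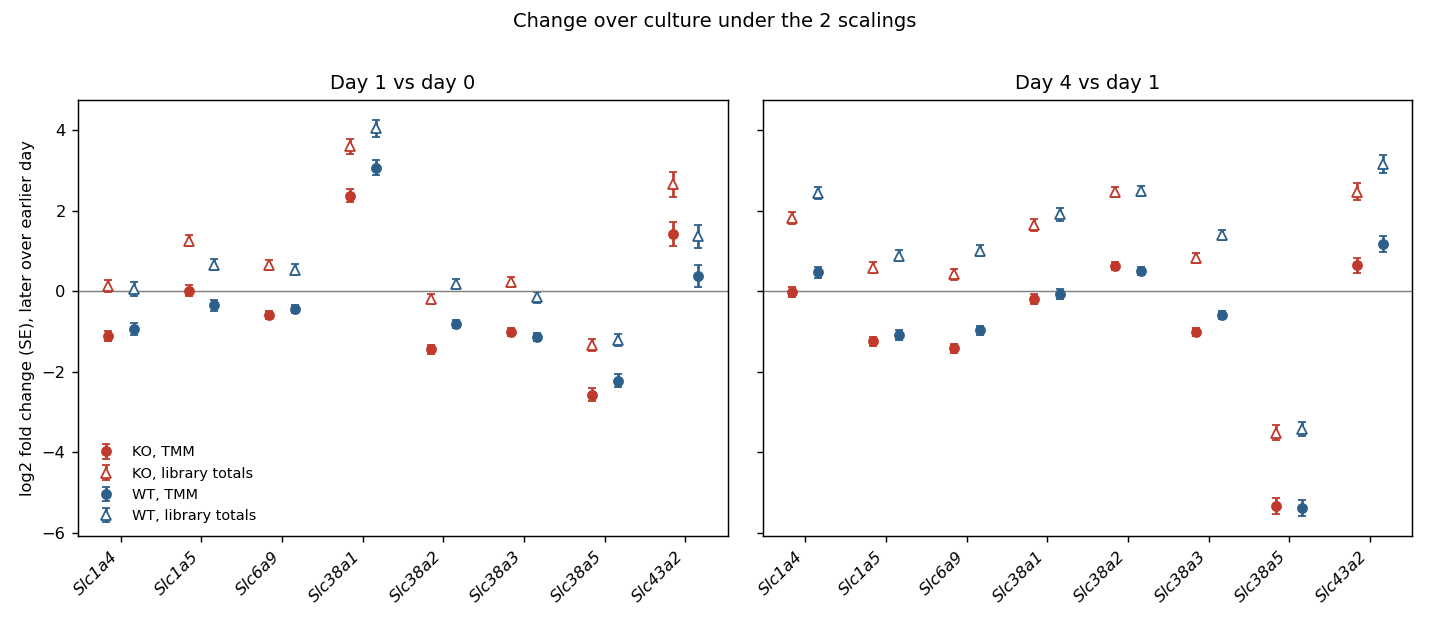
Change of the 8 tested transporters at D1 against D0 and at D4 against D1: the y axis is the log2 fold change with its SE, filled circles use TMM and open triangles library totals, red is KO and blue is WT. The triangles lie above the circles by about the shift of the median gene, and Slc38a5 is below 0 and Slc43a2 above 0 under both.

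Markers of other cells moved over the same days. All 7 endothelial markers were lower at D4 than at D0 in both genotypes, with sums of 0.657 to 2.06 CPM at D4 and 94.7 to 176 CPM at D0 in KO, and 1.35 to 4.34 CPM at D4 and 106 to 146 CPM at D0 in WT. Of 10 acinar markers 9 were lower in each genotype. Over all genes, 64.3% in KO and 60.4% in WT were called at D4 against D0. At D4 against D1 it was 53.4% in KO and 52.3% in WT, and 2.6% in the test of the difference. The fibroblast and stellate markers moved unlike in the genotypes: at D4 against D1, 0 of 7 were higher and 3 lower in KO, and 7 were higher in WT, and 4 of 7 passed the test of the difference, all lower in KO. Their sums were 25.0 to 57.2 CPM at D4 and 11.99 to 46.8 CPM at D1 in KO, and 234 to 322 CPM at D4 and 8.82 to 11.7 CPM at D1 in WT. As a share of library totals they were higher at D4 in KO too, at 0.00833% to 0.0193%, against 0.00106% to 0.00453% at D1. In WT the shares were 0.0645% to 0.0992% at D4 and 0.000672% to 0.000863% at D1. The part of these cells in the transporter values over days, and in the differences between their changes, was not tested.

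Relatives and other amino acid genes are set beside these changes. Of 11 tested relatives in the SLC1, SLC6, SLC38 and SLC43 families, 1 was higher and 5 lower in KO, and 2 were higher and 5 lower in WT, at D4 against D0, beside 64.3% of all genes called in KO and 60.4% in WT. Slc1a3, a glutamate transporter, was lower, at -3.72 in KO (adjusted p = 9.52e-15) and -3.39 in WT (adjusted p = 1.48e-13). Slc6a6, the taurine transporter, was higher by 1.37 in KO (adjusted p = 9.02e-07) and 1.59 in WT (adjusted p = 1.48e-07). With library totals, 7 of the 11 were higher and 1 lower in KO, and 8 were higher and 0 lower in WT. Of all 13203 genes, 12256 were then higher in KO and 12345 in WT.

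Of 12 other plasma membrane amino acid transporters, 2 were higher and 7 lower in KO, and 4 were higher and 6 lower in WT, at D4 against D0, beside the same 64.3% of all genes called in KO and 60.4% in WT. Slc7a8, a carrier of large neutral amino acids, was at -4.41 in KO (adjusted p = 1.26e-13) and -4.18 in WT (adjusted p = 2.78e-13). Slc7a2, a carrier of cationic amino acids, was at 0.95 in KO (adjusted p = 8.67e-07) and 1.01 in WT (adjusted p = 2.94e-07). With library totals 11 were higher and 1 was lower in each genotype, beside 12256 of all 13203 genes higher in KO and 12345 in WT.

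Of 16 enzymes, 2 were higher and 12 lower in KO and 3 were higher and 11 lower in WT at D4 against D0, beside 64.3% of all genes called in KO and 60.4% in WT. Pycr1, the last enzyme of proline synthesis, was at -5.32 in KO (adjusted p = 3.75e-24) and -4.85 in WT (adjusted p = 2.66e-23). With library totals 13 were higher and 1 lower in KO, and 14 were higher and 1 lower in WT. Of all 13203 genes, 12256 were then higher in KO and 12345 in WT. The 15 ATF4 genes were mostly up at D1 and down again at D4: at D1 against D0, 10 were higher and 5 lower in KO and 10 higher and 1 lower in WT, and at D4 against D1, 0 were higher in either and 15 in KO and 13 in WT were lower. Over all genes, 58.1% in KO and 55.4% in WT were called at D1 against D0, and 53.4% in KO and 52.3% in WT at D4 against D1. With library totals 12 were higher and 2 lower in KO at that second step, and 10 were higher and 2 lower in WT. Of all 13203 genes, 12031 were then higher and 347 lower in KO, and 12203 higher and 301 lower in WT. Ddit3, a stress-induced transcription factor, was higher at D1 by 5.09 in KO (adjusted p = 1.01e-17) and 4.40 in WT (adjusted p = 3.18e-17).

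Levels of different genes were compared per kb of gene length. At D0, Slc38a5 stood highest, at 116 ± 6.44 CPM per kb in KO and 121 ± 19.2 in WT (SD, n = 3). In KO it was followed by Slc38a2 (40.4 ± 5.98), Slc38a3 (38.6 ± 2.06) and Slc6a9 (36.3 ± 1.15), whose libraries overlapped. In WT the order was Slc38a3 (38.6 ± 2.07), Slc6a9 (28.8 ± 2.50) and Slc38a2 (26.7 ± 2.09), where the libraries of Slc6a9 and Slc38a2 overlapped and those of Slc38a3 lay above both. Slc1a5 and Slc1a4 came next, at 10.7 ± 1.52 and 8.97 ± 1.16 CPM per kb with overlap in KO, and at 11.3 ± 2.65 and 5.97 ± 0.353 without overlap in WT. Slc38a1 and Slc43a2 were lowest of the 8, at 1.49 ± 0.325 and 0.269 ± 0.115 in KO, without overlap, and at 0.735 ± 0.206 and 0.492 ± 0.221 in WT, with overlap.

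At D4 the order had changed. Slc38a2 stood highest, at 23.2 ± 0.817 CPM per kb in KO and 21.8 ± 0.0889 in WT. Slc38a3 and Slc6a9 followed with overlap, at 9.62 ± 1 and 9.11 ± 0.533 in KO and at 11.8 ± 1.64 and 10.9 ± 1.28 in WT, and then Slc38a1, at 6.88 ± 0.110 in KO and 5.97 ± 0.122 in WT. Slc1a5 and Slc1a4 were at 4.58 ± 0.397 and 4.14 ± 0.295 in KO, with overlap, and at 4.18 ± 0.0295 and 4.37 ± 0.198 in WT, where the libraries did not overlap and the deposited FPKM gave the other order (3.88 for Slc1a5 and 3.76 for Slc1a4). Slc43a2 was at 1.10 ± 0.177 in KO and 1.48 ± 0.0585 in WT, and Slc38a5 was lowest, at 0.484 ± 0.107 in KO and 0.619 ± 0.241 in WT. At D1 Slc6a9 had the highest mean in KO (24.2 ± 3.55), with overlap with Slc38a5 and Slc38a3, and Slc38a5 the highest in WT (26.0 ± 1.83), without overlap.

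The deposited FPKM gave the same order for all 28 pairs of the 8 genes in KO at D0 and D4, and for 25 of 28 in KO at D1. In WT it did so for 26 pairs at D0, 26 at D1 and 27 at D4. In WT at D0 the FPKM put Slc38a2 (31.1) above Slc38a3 (25.4) and Slc6a9 (20.4).

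**Figure D4:**
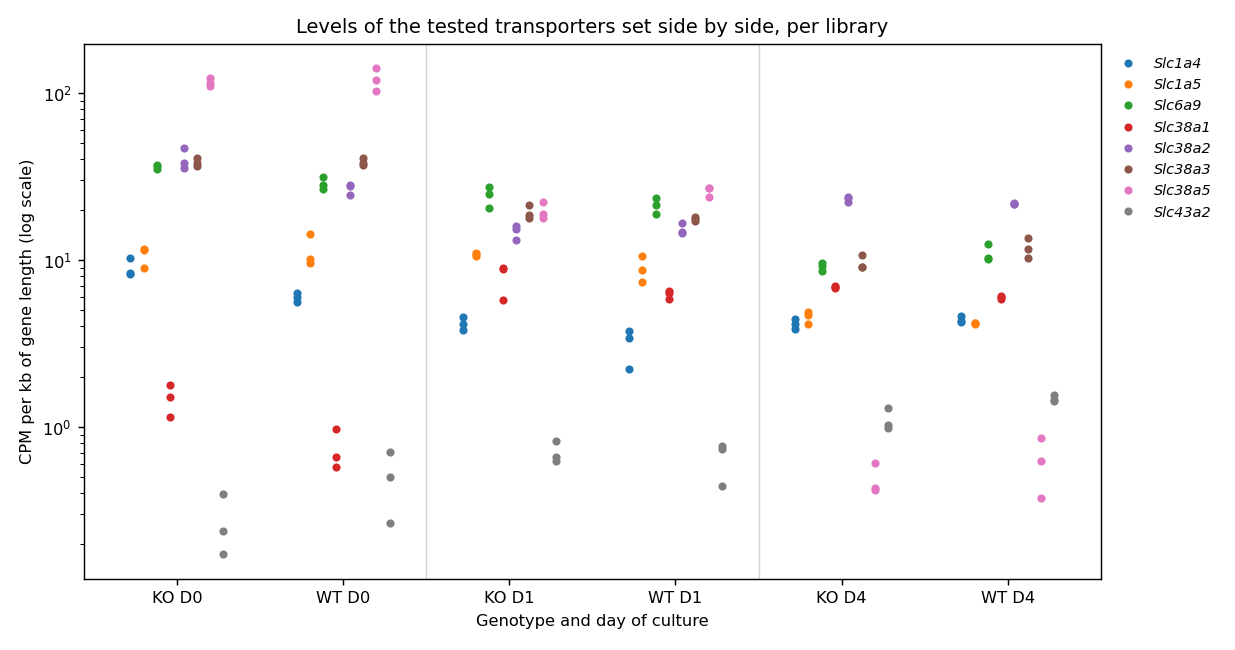
Levels of the 8 tested transporters side by side: the y axis is CPM per kb of gene length on a log scale, each point is 1 library, and the x axis gives genotype and day with KO left of WT. Slc38a5 lies above the others at D0, below them at D4 with means of 0.484 in KO and 0.619 in WT, and Slc38a2 is on top at D4.

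Slc1a1 (EAAT3), a carrier of glutamate, aspartate and cysteine, and Slc43a1 (LAT3), a carrier of leucine, were near the limit of detection. Slc1a1 summed to 3 counts in KO and 3 in WT at D0, 4 in KO and 2 in WT at D1, and 20 in KO and 24 in WT at D4. Slc43a1 summed to 5 counts in KO and 9 in WT at D0, 3 in KO and 7 in WT at D1, and 6 in KO and 23 in WT at D4. At D4 every KO library, at 1, 3 and 2 counts, was below every WT library, at 6, 10 and 7 counts. Neither gene was tested in the main model, and at this depth a difference between genotypes was not measured well enough to be given as one.

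The transporters also fell into patterns over the 18 libraries. In log2 CPM, Slc6a9, Slc38a3 and Slc38a5 ran closely together (Pearson r of 0.94 to 0.96 for the 3 pairs), as did Slc38a2 and Slc1a4 (r = 0.89), and Slc1a5 ran with Slc38a5 (r = 0.92) and Slc6a9 (r = 0.91). Slc38a2 and Slc1a5 were at r = 0.08. Among 7786 genes that averaged 5 CPM or more, those most like Slc38a2 were Tm9sf2 (r = 0.96), Tbc1d8b (r = 0.95) and Mmgt1 (r = 0.95). Slc3a2 (r = 0.97) and Acad8 (r = 0.96) were among those most like Slc1a5. Slc3a2 is the heavy chain that partners xCT and other SLC7 carriers at the membrane. The 18 libraries share 6 groups and a scaling, so these values describe the libraries and carry no p. Slc43a1 was below the level needed.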

How the data were processed

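RNA was sequenced from acinar cells of KO and WT mice, in 18 libraries of 6 groups, assigned by their labels. Raw counts per gene were deposited by the authors, who aligned single-end reads to GRCm38 and counted them with featureCounts 1.5.3, per the labels. The aligner and strand setting are not given in the sources used here. The FPKM table deposited by the authors held 13324 genes, normalized with EDASeq (full quantile). Gene length, in bases, came from the deposited count table. 0 columns belonged to other samples. Chromosomes were taken from GENCODE by gene ID, since that column was empty.

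Counts were tested in R 4.3.3 with edgeR 4.0.16 (filterByExpr, TMM, robust quasi-likelihood F-test) in 1 model of 6 groups without a block, with Benjamini-Hochberg adjustment over all 13203 genes tested. Calls are at an adjusted p under 0.05. Alternatives were DESeq2 1.42.0, library totals, no filter on low counts, a replicate block, the compared groups alone, each library left out, replicate 1 of WT left out, and limma 3.58.1 on log2(FPKM + 1) and log2(FPKM + 0.1). The code was tested on simulated data. The series describes 3 biological replicates per time point. Members and gene lists were chosen with earlier results of these data known. All 10 transporters are named, and listed genes are named from the 3 with the smallest adjusted p per list and direction. The removal of replicate 1 of WT from the list counts was chosen after seeing the data. Promoter motifs were searched after seeing the data. Correlations used log2(CPM + 1). Some genes that these rules select are not reported here.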

Additional observations from a re-analysis of the deposited data

How the results depend on the processing

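Of 88 log2 fold changes of the 8 tested transporters, 26 had the opposite sign with library totals in place of TMM while being called under at least 1 of the scalings. Under the other alternatives, each library left out included, a sign changed only where neither value was called. With library totals, D1 against D0 was 0.14 in KO and 0.065 in WT for Slc1a4, 0.67 in WT for Slc1a5, 0.19 in WT for Slc38a2, 0.24 in KO for Slc38a3, and 0.66 in KO and 0.54 in WT for Slc6a9. D4 against D1 was 1.83 in KO for Slc1a4, 0.59 in KO and 0.89 in WT for Slc1a5, 1.65 in KO and 1.92 in WT for Slc38a1, 0.83 in KO and 1.40 in WT for Slc38a3, and 0.42 in KO and 1.01 in WT for Slc6a9. D4 against D0 was 1.97 in KO and 2.52 in WT for Slc1a4, 1.85 in KO and 1.56 in WT for Slc1a5, 2.29 in KO and 2.67 in WT for Slc38a2, 1.07 in KO and 1.25 in WT for Slc38a3, and 1.08 in KO and 1.55 in WT for Slc6a9. At D1 against D0, library totals also gained calls for Slc1a5 in KO (1.26) and Slc43a2 in WT (1.37). The sign changes follow the shift of the median gene that TMM removes.

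The number of transporters called between KO and WT at D0, 3 in the model of 6 groups, was 1 with the D0 libraries alone, 1 without replicate 1 of WT, 2 with library totals, 2 with log2(FPKM + 0.1), and 1 to 3 with each library left out. At D1 it was 0, and 5 with library totals, 1 with no filter on low counts (Slc38a5) and 0 to 1 with each library left out. At D4 it was 0, and 1 in DESeq2, 1 with no filter (Slc43a2), 2 without replicate 1 of WT, 3 with the D4 libraries alone and 0 to 1 with each library left out. For the difference in the change from D0 to D1 it was 0, and 1 in DESeq2, 1 with no filter and 0 to 1 with each library left out (Slc38a2 each time). From D1 to D4 it was 0, and 0 to 1. The cause was not tested.

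Libraries of 1 number deviated from their group means with correlations of -0.0369 to 0.225 between days of a genotype. Between genotypes these correlations were -0.125 to 0.16. The labels do not say what a number marks, and the numbers were not taken as pairs. All 6 libraries of D0 and D1 in KO, and of D1 and D4 in WT, correlated best with their own number. In KO it was 4 of 6 for D1 and D4 and 2 of 6 for D0 and D4. In WT it was 5 of 6 for D0 and D1 and 3 of 6 for D0 and D4. Between KO and WT it was 0 of 6 at D0, 1 of 6 at D1 and 2 of 6 at D4. As a replicate block, the number was taken within each genotype for changes over days. For KO against WT it was taken across both genotypes, which puts KO and WT libraries of 1 number together. With these blocks in edgeR, 87 of 88 calls were as before. The exception was Slc38a3, called at D4 between KO and WT (-0.29, adjusted p = 0.0492) with the block across genotypes.

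Counts over all genes moved more. KO against WT at D0 called 155 genes, with 296 in DESeq2, 337 without the filter, 396 and 361 in limma, 66 with those libraries alone and 67 to 222 with each library left out. At D1 it called 192, with 560 in DESeq2, 384 without the filter, 117 and 81 in limma, 2398 with library totals and 45 to 214. At D4 it called 1350, with 2171 in DESeq2, 426 and 334 in limma, 3780 with those libraries alone and 609 to 876. Without replicate 1 of WT, KO against WT called 177 genes at D0, 147 at D1 and 983 at D4. The difference in change called 13 genes from D0 to D1 (136 in DESeq2, 84 without the filter, 42 and 57 in limma, 7 with those groups alone, 3 to 43) and 343 from D1 to D4 (682 in DESeq2, 515 without the filter, 200 and 174 in limma, 109 without replicate 1 of WT, 180.0 to 421). With library totals D4 against D1 called 12378 genes in KO and 12504 in WT, against 7046 in KO and 6904 in WT with TMM, and D4 against D0 in WT called 12650, against 7976.

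Of the transporters, Slc1a1 and Slc43a1 at all days, Slc38a1 and Slc43a2 at D0, and Slc38a5 at D4 rest on few counts, which limits what their values can show. KO libraries and WT replicate 1 differ in sex as well as genotype, and WT replicates 2 and 3 are the only WT libraries like the KO ones in this. Nothing in the labels says whether a number marks the same mouse over days.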
